A study of Homo sapiens with 8 samples.

Results

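The mitochondrial ribosomal protein genes are the nuclear genes with symbols beginning MRPL or MRPS. They were taken here by symbol, as MRPL or MRPS followed by a number and at most 1 letter from A to C, which leaves out pseudogenes. The rule found 86 of the 63677 gene identifiers in the count tables, under 76 symbols. Of these identifiers, 75 passed the filter on low counts, each under its own symbol, with 46 MRPL and 29 MRPS genes. Another 3 fell below the filter, the 2 identifiers of MRPL30 with 0 to 3 reads per library and a second identifier of MRPS17 with 0 to 2. The last 8 held no reads and were extra identifiers of MRPS18B (6), MRPL45 (1) and MRPS36 (1). MRPL30 was the only symbol with no tested identifier.

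RNA was sequenced from DND-41 and MOLT-4, 2 established human lines of T-cell acute lymphoblastic leukaemia (T-ALL). The groups were DND-41 with ACBI-1, DND-41 with DMSO, MOLT-4 with ACBI-1 and MOLT-4 with DMSO, each as 2 libraries of total RNA taken after 3 h. ACBI-1, given at 100 nM, is a degrader that recruits the VHL ubiquitin ligase to SMARCA2, SMARCA4 and PBRM1, which are subunits of the SWI/SNF chromatin remodelling complexes, and DMSO is its solvent. The labels name no inactive control compound, no genetic change and no origin of the replicates in separate cultures, so the p-values cover the spread among these libraries, and that may be only technical. Line coincides with the deposited table, so a difference between the lines cannot be told apart from a difference in their handling.

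Mitochondria carry their own ribosome, which translates the few proteins encoded in mitochondrial DNA, all of them parts of the respiratory chain and ATP synthase. The RNA of this ribosome is transcribed inside the organelle, but its proteins are made in the cytosol from nuclear genes and imported. The large subunit (mostly MRPL proteins) holds the peptidyl transferase centre, and the small subunit (mostly MRPS proteins) binds the mRNA and reads the codons. The naming is not exact, since MRPS18A and MRPS30 are proteins of the large subunit, and MRPS36 was later placed in the alpha-ketoglutarate dehydrogenase complex. All 3 are counted here with the MRPS genes, by symbol.

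Total counts lay between 19867779 and 20082524 per library, and reads of mitochondrially encoded genes made up 13.3 to 20% of them. TLX3, expressed in DND-41, had 4611 to 7523 reads in the DND-41 libraries and 1 to 9 in the MOLT-4 libraries, whereas TAL1 had 0 to 4 reads in DND-41 and 722 to 796 in MOLT-4. The summed level of 8 T-lineage markers was 4622 to 4800 CPM (counts scaled to a common library size) in DND-41 and 2361 to 2487 in MOLT-4. Single markers went both ways. CD7, CD3D, CD3E and CD3G had more reads in DND-41, and CD2, CD5, LCK and PTCRA had fewer. CD7 had 40095 to 45683 reads in DND-41 and 1536 to 1831 in MOLT-4, whereas CD5 had 23 to 44 and 2042 to 3052. The erythroid markers were at 0 in all 8 libraries, and the B-lineage, myeloid, and epithelial and fibroblast markers summed to at most 3.52 CPM in any library. All levels are relative to the library total, so fewer cells and less RNA per cell cannot be told apart.

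Transcript levels of the mitoribosomal genes were moderate. With CPM divided by the length of the merged exons in kilobases (RPKM, lengths from GENCODE 29), the 73 tested genes with a length had a median of 14.6 RPKM over the 8 libraries, with quartiles at 5.85 and 25.2. The range was 0.431 to 92.8 RPKM, and 3 genes lay over 50 and 16 under 5. The MRPL genes had a median of 16.7 RPKM and the MRPS genes one of 9.26 RPKM. Before division by length, the medians of the tested genes were 32.3 CPM for MRPL and 33.9 CPM for MRPS. The gap in RPKM thus depends on the merged exon lengths and does not show a lower read count for the MRPS genes. MRPL45 and MRPS21 had no length in that annotation and take no part in this order.

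MRPL37, a protein of the large subunit, was the highest, with a mean of 92.8 RPKM and library values between 85.5 and 99.3. It was followed by MRPL4 at 51.2 RPKM, MRPS34 at 50.5, MRPL3 at 42.1 and MRPS26 at 41.1. Among these 5, the library values of MRPL37 lay above all others, and those of its followers overlapped. MRPS34 ran from 31.3 to 68.1 RPKM, with 64.6 ± 1.7 and 66.1 ± 2.71 RPKM in DND-41 with ACBI-1 and DMSO, and 34.3 ± 4.23 and 36.9 ± 2.52 RPKM in MOLT-4 with ACBI-1 and DMSO (SD, n = 2 each).

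The lowest were MRPS24 at 0.431 RPKM, MRPL46 at 1.46, MRPL53 at 1.82, MRPS17 at 1.86 and MRPS33 at 2.29. This order depends on the merged exon lengths, which were 6.43 kb for MRPL46 and 5.26 kb for MRPS33, against 1.34 kb for MRPL53. Before division by length, MRPS33 had 16.8 to 20 CPM in the MOLT-4 libraries. The order with the length of the longest transcript is not given here. The library values of MRPS24, between 0.323 and 0.531 RPKM, lay below those of all the other genes in the order. Those of MRPL46, MRPL53, MRPS17 and MRPS33 overlapped one another. Part of the exon bases of some low genes is shared with another gene on the same strand, which amounts to 23.2% for MRPS24, 45.2% for MRPL53, 27% for MRPS17 and 11.3% for MRPL46. The sources used here do not state how reads in such bases were assigned.

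**Figure D1:**
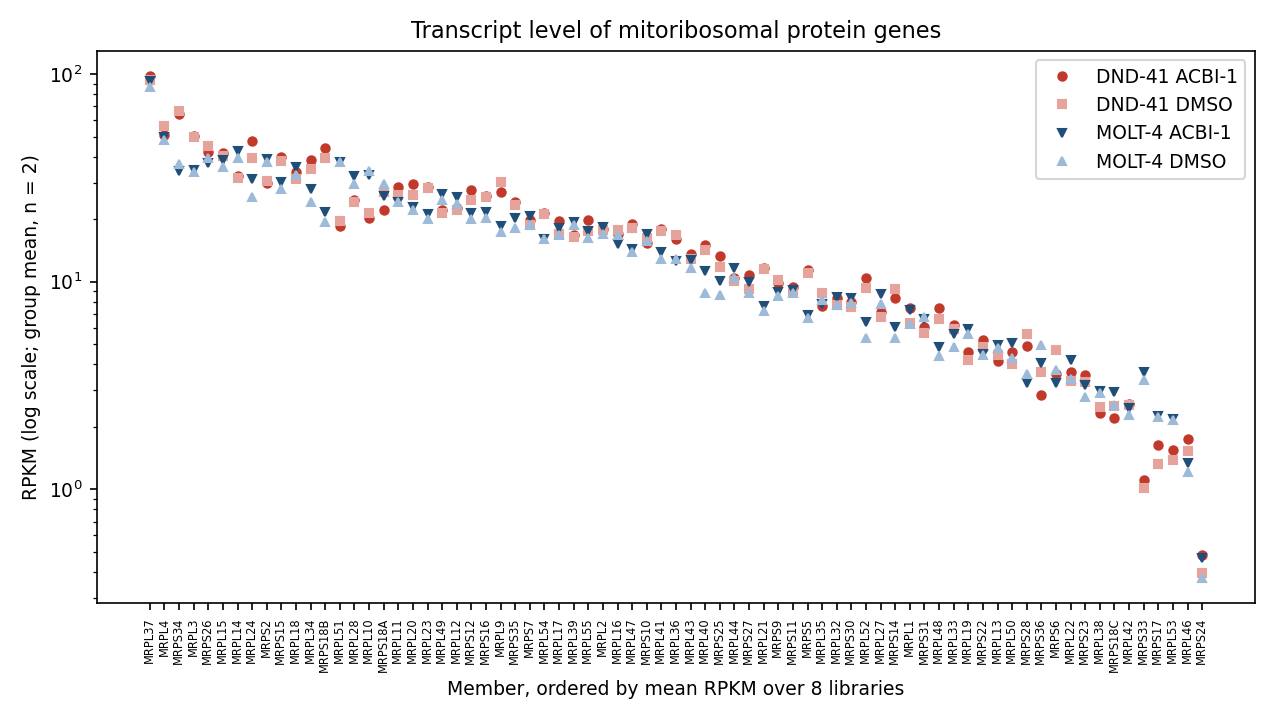
Transcript level of the 73 mitoribosomal protein genes with an exon length, ordered by their mean over the 8 libraries. The y axis is RPKM on a log scale, and each symbol is the mean of the 2 libraries of a group. MRPL37 stands at 92.8 RPKM on the left and MRPS24 at 0.431 on the right, and MRPS33 is split by line.

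The summed level of all 86 identifiers was 3358 ± 87.9 CPM with ACBI-1 and 3269 ± 112 CPM with DMSO in DND-41, and 3102 ± 65.6 CPM with ACBI-1 and 2939 ± 76.5 CPM with DMSO in MOLT-4 (SD, n = 2 each). The library values in DND-41 were 3296 and 3420 with ACBI-1, against 3190 and 3349 with DMSO, and overlapped. In MOLT-4 they were 3148 and 3055 with ACBI-1, against 2993 and 2885 with DMSO, and did not overlap. MRPL genes contributed 2163 ± 52.2 and 2104 ± 68.8 CPM in DND-41 with ACBI-1 and DMSO, and 2054 ± 53.8 and 1941 ± 44.3 CPM in MOLT-4 with ACBI-1 and DMSO. Cytosolic ribosomal protein genes, which encode the ribosome outside the mitochondrion, summed to 40304 and 39746 CPM in DND-41 with ACBI-1 and DMSO, and to 51247 and 49374 CPM in MOLT-4 with ACBI-1 and DMSO. Their library values overlapped in DND-41. In MOLT-4 they were 51409 and 51085 with ACBI-1, against 50502 and 48246 with DMSO, and likewise did not overlap.

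The first question was whether 3 h of ACBI-1 changed these transcripts in DND-41. The changes were small. MRPL24 and MRPS27 rose, MRPS6 and MRPS18A fell, and the other 71 tested genes did not pass the threshold of 5% on the adjusted p (edgeR, quasi-likelihood F-test). These 4 of 75 genes are 5.33%, beside 9.83% of the 14019 genes tested (3.78% risen and 6.05% fallen), and no mitoribosomal gene reached a 2-fold change. Fitted log2 fold changes ranged from -0.363 to 0.312.

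The median log2 fold change of the 75 genes was 0.063 in DND-41, against 0.003 over all genes tested, and 72% of them were positive, against 50.6% of all. The medians were 0.067 for the MRPL genes, of which 1 rose and 0 fell, and 0.063 for the MRPS genes, of which 1 rose and 2 fell. Cytosolic ribosomal protein genes had a median of 0.046, with 66 of 79 positive. None of those 79 passed the edgeR test, and 1 (1.27%) had an unadjusted p under 0.05, against 17.3% of the mitoribosomal genes and 21.4% of all genes tested. Both ACBI-1 libraries lay above both DMSO libraries for 22 mitoribosomal genes (29.3%, beside 21.4% of all genes tested) and below both for 14 (18.7%, beside 27.5%). The groups overlapped for the other 39, so 48% did not overlap, beside 49% of all genes tested. DESeq2 called 1 mitoribosomal gene, beside 5.48% of all genes.

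In MOLT-4 the changes were also small. MRPL24, MRPL40 and MRPL22 rose and none fell, which is 4% of the 75 genes beside 10.8% of the 14470 genes tested (edgeR; 3.9% risen and 6.94% fallen). In all, 10 of the 75 genes (13.3%) had an unadjusted p under 0.05, against 22.6% of all genes tested. The median log2 fold change was 0.090, against -0.001 over all genes tested, and the range was -0.292 to 0.345. Positive values were found for 61 of the 75 genes (81.3%, against 49.8% of all).

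In MOLT-4 both ACBI-1 libraries lay above both DMSO libraries for 36 genes (48%, beside 26% of all genes tested) and below both for 4 (5.33%, beside 24.9%). The groups did not overlap for 53.3%, beside 50.8% of all. The medians were 0.096 for the MRPL genes and 0.073 for the MRPS genes. Of the 29 MRPS genes none was called by edgeR, 4 (13.8%) had an unadjusted p under 0.05, and DESeq2 called none of the 75 genes, beside 6.17% of all genes. The median of the 78 cytosolic ribosomal protein genes tested was 0.045, with 0 risen and 1 fallen. Of these 78, 64 (82.1%) were positive, beside 81.3% of the mitoribosomal genes.

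**Figure D2:**
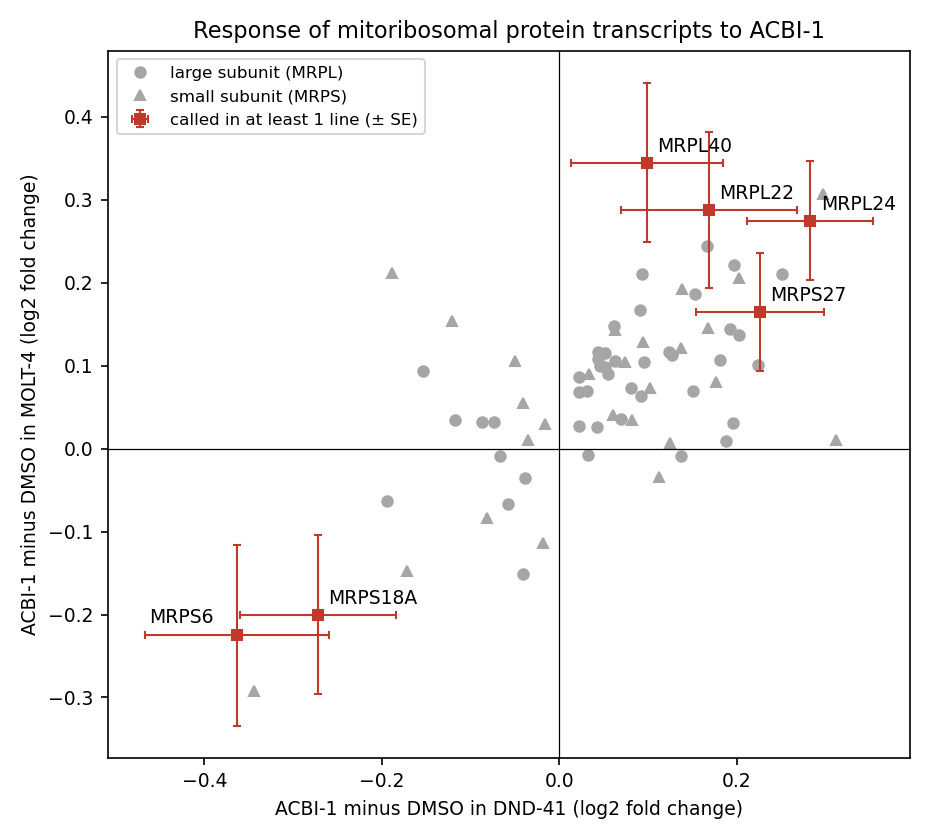
Log2 fold change (ACBI-1 minus DMSO) of each of the 75 tested mitoribosomal protein genes in both lines. The x axis is DND-41 and the y axis MOLT-4, points are fitted edgeR values, and named points with SE bars passed the 5% threshold in at least 1 line. Most points (51 of 75) lie above 0 in both lines, and MRPL24 passed in both.

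MRPL24, a protein of the large subunit (ENSG00000143314), was the 1 gene called in both lines. It had 77.4 and 83.3 CPM in the DND-41 ACBI-1 libraries, against 66.2 and 67.3 CPM in the DND-41 DMSO libraries. MOLT-4 had 54.4 and 51.4 CPM with ACBI-1, against 43.7 and 43.2 CPM with DMSO. In each line both treated libraries were above both solvent libraries. The log2 fold change was 0.28 ± 0.071 (SE) in DND-41 (edgeR, adjusted p = 0.00743) and 0.28 ± 0.072 in MOLT-4 (adjusted p = 0.0122). DESeq2 gave an adjusted p of 0.0371 in DND-41 and 0.0707 in MOLT-4. In the authors' deposited table its adjusted p was 0.0433 for DND-41, where it was the only mitoribosomal gene under 5%, and 0.0798 for MOLT-4, where none was.

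MRPL40 (ENSG00000185608) and MRPL22 (ENSG00000082515), both proteins of the large subunit, passed in MOLT-4. MRPL40 had 21.6 and 22.5 CPM with ACBI-1, against 17.8 and 16.7 CPM with DMSO (0.34 ± 0.096 on the log2 scale, edgeR, adjusted p = 0.0179). MRPL22 had 21.7 and 22.4 CPM with ACBI-1, against 18 and 17.9 CPM with DMSO (0.29 ± 0.094, adjusted p = 0.0488). For both genes the MOLT-4 groups did not overlap. In DND-41, MRPL40 had 29.4 and 29.8 CPM with ACBI-1, against 27.3 and 28.5 with DMSO (0.099 ± 0.086, adjusted p = 0.575). MRPL22 had 19.4 and 19.6 CPM with ACBI-1, against 17.7 and 17.3 with DMSO (0.17 ± 0.099, adjusted p = 0.342). Neither passed there, although the libraries were also ordered ACBI-1 above DMSO.

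MRPS27 (ENSG00000113048), a pentatricopeptide repeat protein of the small subunit, had 70.3 and 69.4 CPM in DND-41 with ACBI-1, against 59.1 and 61.7 CPM with DMSO. Its log2 fold change was 0.23 ± 0.072 (edgeR, adjusted p = 0.0395). MOLT-4 had 63.4 and 66.7 CPM with ACBI-1, against 60.2 and 55.2 with DMSO (0.17 ± 0.071, adjusted p = 0.154). The groups were apart in both lines, and the gene passed in DND-41.

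MRPS6 (ENSG00000243927), a protein of the small subunit, fell in DND-41 to 16.6 and 14.3 CPM with ACBI-1, against 19.4 and 20.7 CPM with DMSO (-0.36 ± 0.104, edgeR, adjusted p = 0.0202). MOLT-4 had 13.3 and 14.6 CPM with ACBI-1, against 15.2 and 17.3 with DMSO (-0.23 ± 0.109, adjusted p = 0.221). All treated libraries lay below the solvent libraries of their line. On the same strand 9.61% of the MRPS6 exon bases are shared with SLC5A3 and AP000317.2.

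MRPS18A (ENSG00000096080) fell in DND-41 to 26.3 and 30.5 CPM with ACBI-1, against 33.3 and 36 CPM with DMSO (-0.27 ± 0.088, edgeR, adjusted p = 0.0436). MOLT-4 had 29.9 and 36.8 CPM with ACBI-1, against 41.7 and 34.4 with DMSO (-0.20 ± 0.096, adjusted p = 0.211), and these groups overlapped. Exons of RSPH9 on the opposite strand share 47% of the MRPS18A exon bases. Whether the counting used strand is not stated, and reads of the pair could not be separated.

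These calls rest on all 4 libraries of a line. A fit without 1 library leaves a single library in a group, so only its fold changes are given. In DND-41 the log2 fold change then lay between 0.23 and 0.33 for MRPL24 and between 0.19 and 0.25 for MRPS27. It lay between -0.48 and -0.26 for MRPS6 and between -0.38 and -0.17 for MRPS18A. The value of MRPS18A was -0.17 without ACBI-1 replicate 1. In MOLT-4 it lay between 0.23 and 0.33 for MRPL24, 0.30 and 0.39 for MRPL40, and 0.27 and 0.31 for MRPL22. MRPS18A, not called with all MOLT-4 libraries, had -0.33 without DMSO replicate 2. With all libraries, DESeq2 kept the edgeR call of MRPL24 in DND-41 and no other of these calls.

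The genes next in order of p did not pass in either line. MRPS25, a protein of the small subunit, had 72.7 and 70.9 CPM with ACBI-1, against 63.3 and 62.8 with DMSO, in DND-41 (0.20 ± 0.071, edgeR, adjusted p = 0.0694). In MOLT-4 it had 55.8 and 52.1 CPM with ACBI-1, against 45.8 and 47.2 with DMSO (0.21 ± 0.072, adjusted p = 0.0694). The groups were apart in both lines. MRPL17 in DND-41 (0.22 ± 0.080, adjusted p = 0.0742), and MRPL34 (0.19 ± 0.074, adjusted p = 0.115) and MRPL52 (0.24 ± 0.10, adjusted p = 0.134) in MOLT-4, all of the large subunit, were likewise higher in both ACBI-1 libraries.

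**Figure D3:**
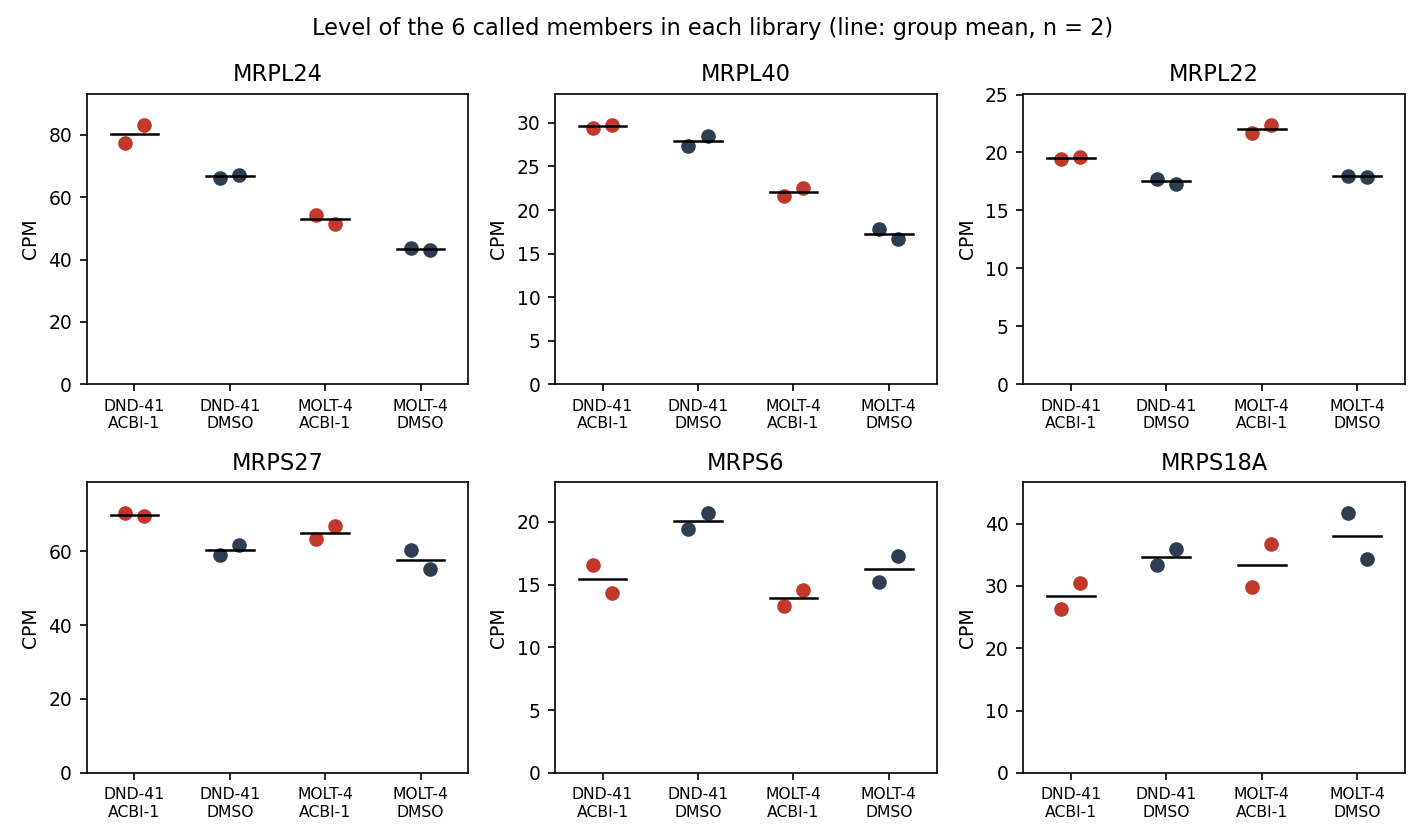
Level in every library of the mitoribosomal protein genes that passed the 5% threshold in at least 1 line. The y axis of each panel is CPM and starts at 0, points are single libraries and horizontal bars are group means (n = 2). MRPL24 is higher with ACBI-1 in both lines, and MRPS6 and MRPS18A are lower in DND-41.

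The sequences before the start of these 6 genes are given for their shared and unshared motifs, since ACBI-1 acts on chromatin remodellers and the genes moved in both directions. Each is the 150 bases that end at the annotated start, 5′ to 3′ on the strand of the gene, from RefSeq on GRCh38.p14. Capitals mark matches to the motifs searched.
MRPL24: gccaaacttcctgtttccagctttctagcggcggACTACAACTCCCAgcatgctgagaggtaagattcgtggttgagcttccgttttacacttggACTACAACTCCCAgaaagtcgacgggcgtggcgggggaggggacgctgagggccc
MRPL22: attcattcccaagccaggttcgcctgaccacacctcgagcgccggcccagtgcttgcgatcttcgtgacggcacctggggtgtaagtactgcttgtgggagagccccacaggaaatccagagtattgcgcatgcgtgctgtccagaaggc
MRPL40: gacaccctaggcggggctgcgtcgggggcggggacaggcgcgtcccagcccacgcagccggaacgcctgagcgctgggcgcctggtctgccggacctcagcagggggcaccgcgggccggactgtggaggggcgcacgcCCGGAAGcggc
MRPS27: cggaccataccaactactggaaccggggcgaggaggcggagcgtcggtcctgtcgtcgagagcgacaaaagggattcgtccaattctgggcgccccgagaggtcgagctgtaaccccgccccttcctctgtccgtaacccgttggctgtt
MRPS6: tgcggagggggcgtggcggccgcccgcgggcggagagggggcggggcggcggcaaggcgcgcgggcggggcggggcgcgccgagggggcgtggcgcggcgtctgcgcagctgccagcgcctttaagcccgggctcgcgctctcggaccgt
MRPS18A: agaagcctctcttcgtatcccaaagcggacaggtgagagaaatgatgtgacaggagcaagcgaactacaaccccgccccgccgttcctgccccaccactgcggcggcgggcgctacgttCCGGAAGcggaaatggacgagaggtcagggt

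The windows are chr1:156741089-156741238 (minus strand) for MRPL24, chr5:154940923-154941072 (plus) for MRPL22, chr22:19432395-19432544 (plus) for MRPL40, chr5:72320241-72320390 (minus) for MRPS27, chr21:34073428-34073577 (plus) for MRPS6 and chr6:43687792-43687941 (minus) for MRPS18A. MRPL24 holds 2 copies of the ZNF143 motif. MRPL40 and MRPS18A, of which 1 rose in MOLT-4 and the other fell in DND-41, each hold CCGGAAG, a motif of ETS factors such as GABPA. MRPS27, MRPL22 and MRPS6 hold none of the motifs searched in these 150 bases. A match is a run of letters and was not tested for binding.

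Over the whole promoter window in RefSeq, 250 bases before and 50 after the start on both strands, 66 of the 75 tested genes were matched. CCGGAAG was present in 27 of the 66 (40.9%), against 14.1% of 15777 other protein-coding genes. AANATGGCG, a motif of YY1, was present in 18 (27.3%), against 4.72% of the others. In the 250 bases before the start alone that motif was in 4.55%, against 1.62%, so most of its matches lay at or after the start. The ZNF143 motif was present in 6 (9.09%, against 2.11%), and this motif was chosen after the MRPL24 sequence had been read.

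The other motifs searched were about as frequent as elsewhere. The palindromic NRF1 motif was present in 1.52% of the mitoribosomal promoters, against 1.76% of the others. CACGTG, the E-box bound by MYC, was present in 9.09%, against 8.88%. The ETS and YY1 motifs can share bases and were counted apart: 4 genes held both, and the matches overlapped in 0 of them. No share was tested.

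A neighbouring start on the opposite strand within 1000 bases was found for 16 of the 66 genes (24.2%), against 10.2% of the other protein-coding genes. One such pair joins a large and a small subunit gene, MRPL46 and MRPS11, 320 bases apart. Of the called genes, MRPL40 is paired with HIRA, a histone chaperone, and MRPS27 with PTCD2, a mitochondrial pentatricopeptide repeat protein. Neither partner passed in either line, with values in MOLT-4 of 0.15 ± 0.080 for HIRA (edgeR, adjusted p = 0.293) and in DND-41 of -0.11 ± 0.141 for PTCD2 (adjusted p = 0.738). Partners that passed in MOLT-4 were EME1 next to MRPL27 (0.35 ± 0.067, adjusted p = 0.000708), CYB5RL next to MRPL37 (0.40 ± 0.110, adjusted p = 0.0158) and PPP1R10 next to MRPS18B (-0.26 ± 0.063, adjusted p = 0.00575). In none of these 3 pairs did the mitoribosomal gene pass.

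Set side by side, the responses of the lines had the same sign for most genes. Of the 75 genes, 51 were positive in both lines, 11 negative in both and 13 of opposite sign. Across the genes, Pearson's r between the lines was 0.66, against 0.445 over the 12968 genes tested in both lines. These sets were not matched for level. The median level was 33.6 CPM for the 75 genes, against 20.1 over all genes tested in DND-41 and 18.9 in MOLT-4. The 2 lines have separate controls, the genes of a line share its libraries, and genes are not independent replicates, so no p is given.

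No mitoribosomal gene passed the test of whether the lines responded differently (edgeR, interaction term), where 0.641% of the 15604 genes tested did. DESeq2 called none of the 75 either, beside 0.714% of all genes, and 3 (4%) had an unadjusted p under 0.05 in edgeR, against 7.64% of all genes. These were MRPL9 (-0.27 ± 0.109, adjusted p = 0.465), MRPS18C (-0.42 ± 0.177, adjusted p = 0.501) and MRPL40 (-0.27 ± 0.124, adjusted p = 0.602), as DND-41 minus MOLT-4. They were chosen for these p-values. MRPS18C, a small subunit protein, had 10.6 and 10.7 CPM in DND-41 with ACBI-1, against 11.8 and 12.8 with DMSO. It had 15.5 and 13.2 CPM in MOLT-4 with ACBI-1, against 10.8 and 13.9 with DMSO, where the groups overlapped.

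Between the lines the differences were larger. With DMSO, 28 of the 75 genes were higher and 13 lower in DND-41 than in MOLT-4 (edgeR). These 41 genes are 54.7%, beside 64.4% of the 15604 genes tested (31.6% higher and 32.8% lower). The median log2 difference was 0.117, against -0.006 over all genes tested. In CPM, both DND-41 libraries lay above both MOLT-4 libraries for 39 genes (52%, beside 40.5% of all genes tested) and below both for 22 (29.3%, beside 41.3%), so 81.3% did not overlap, beside 81.8%. Against a minimum fold of 1.5, 6 genes were higher and 2 lower, where 29.7% of all genes passed. DESeq2 called 36, beside 57.5% of all genes. At least a 2-fold difference was fitted for MRPS18B and MRPS33 and no other gene of the 75. The split was 16 higher and 8 lower among the MRPL genes, and 12 higher and 5 lower among the MRPS genes.

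Of 79 cytosolic ribosomal protein genes tested, 5 were higher and 52 lower in DND-41 with DMSO, with a median of -0.239. All 13 mitochondrially encoded protein genes had values below 0, with 7 called lower and a median of -0.367. The difference between these lists and the mitoribosomal genes was not tested.

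MRPS18B, a protein of the small subunit, was the highest in DND-41 relative to MOLT-4. It had 71.2 and 77.7 CPM in the DND-41 DMSO libraries, against 37.3 and 36.3 CPM in the MOLT-4 DMSO libraries. The log2 difference was 1.02 ± 0.073 (edgeR, adjusted p = 1.16e-12), a 2.02-fold higher level. With ACBI-1 it had 81.7 and 83.8 CPM in DND-41, against 42.1 and 39.8 in MOLT-4 (1.01). The lines were apart in all 8 libraries. Its partner on the opposite strand, PPP1R10, differed by 0.13 ± 0.064 (adjusted p = 0.069).

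MRPS34, a small subunit protein whose gene is mutated in a form of Leigh syndrome, had 70.5 and 74.7 CPM in DND-41, against 42.4 and 38.5 in MOLT-4, with DMSO (0.84 ± 0.080, edgeR, adjusted p = 3.96e-10). MRPL9, of the large subunit, had 53.8 and 56.1 CPM in DND-41, against 32.9 and 29.9 in MOLT-4 (0.81 ± 0.077, adjusted p = 4.83e-10). MRPL52, also of the large subunit, had 29.8 and 30.4 CPM in DND-41, against 18.4 and 16 in MOLT-4 (0.81 ± 0.094, adjusted p = 1.98e-08). For each of these 3 genes the lines did not overlap. On the opposite strand 33.2% of the MRPL9 exon bases are shared with other genes, OAZ3 among them.

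MRPS14 had 23.7 and 24.1 CPM in DND-41, against 14.7 and 13.2 in MOLT-4 (0.78 ± 0.105, edgeR, adjusted p = 2.59e-07). MRPS5, which lies near the mRNA path in the small subunit, had 71.6 and 76.9 CPM in DND-41, against 47.4 and 42.1 in MOLT-4 (0.73 ± 0.073, adjusted p = 1.23e-09). Both were higher in each DND-41 library than in any MOLT-4 library. MRPL24 and MRPL40, called with ACBI-1, were also higher in DND-41 with DMSO, by 0.62 ± 0.071 (adjusted p = 1.65e-08) and 0.69 ± 0.089 (adjusted p = 1.16e-07).

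MRPS33, of the small subunit, was the lowest in DND-41 relative to MOLT-4. It had 5.56 and 5.11 CPM in the DND-41 DMSO libraries, against 18.5 and 16.8 CPM in the MOLT-4 DMSO libraries. The log2 difference was -1.73 ± 0.123 (edgeR, adjusted p = 9.98e-13), which is 3.31-fold lower in DND-41. With ACBI-1 the levels were 5.98 and 5.63 CPM in DND-41, against 20 and 18.7 in MOLT-4 (-1.73). All 4 DND-41 libraries lay far below all 4 MOLT-4 libraries.

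MRPL51, of the large subunit, had 29.2 and 31.9 CPM in DND-41, against 57.6 and 59.3 in MOLT-4, with DMSO (-0.94 ± 0.079, edgeR, adjusted p = 3.75e-11). NCAPD2, a condensin subunit whose start lies 840 bases away on the opposite strand, was also lower in DND-41 (-1.10 ± 0.064, adjusted p = 1.25e-14). Its exons share 31.3% of the MRPL51 exon bases on the opposite strand, and reads of the pair could not be separated.

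MRPL10, which anchors the stalk of the large subunit, had 57.5 and 60.5 CPM in DND-41, against 95.8 and 92.3 in MOLT-4 (-0.67 ± 0.067, edgeR, adjusted p = 1.02e-09). MRPL12, the stalk protein it binds, differed by -0.097 with DMSO and did not pass. On the same strand 68.2% of the MRPL12 exon bases are shared with AC139530.2. The libraries of the lines were apart for MRPL10.

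MRPS17 had 2.9 and 2.83 CPM in DND-41, against 5.3 and 4.29 in MOLT-4 (-0.74 ± 0.191, edgeR, adjusted p = 0.00133). MRPS36 had 5.76 and 5.46 CPM in DND-41, against 7.62 and 7.54 in MOLT-4 (-0.43 ± 0.146, adjusted p = 0.011). MRPL53 had 1.62 and 2.08 CPM in DND-41, against 2.52 and 3.25 in MOLT-4 (-0.64 ± 0.242, adjusted p = 0.0233). These low genes were lower in both DND-41 libraries, but the calls of MRPS36 and MRPL53 did not hold with DESeq2 (adjusted p = 0.0524 and 0.0833). The value of MRPS36 was -0.40 without DND-41 DMSO replicate 2. That of MRPL53 was -0.47 without DND-41 DMSO replicate 1 and -0.48 without MOLT-4 DMSO replicate 2.

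**Figure D4:**
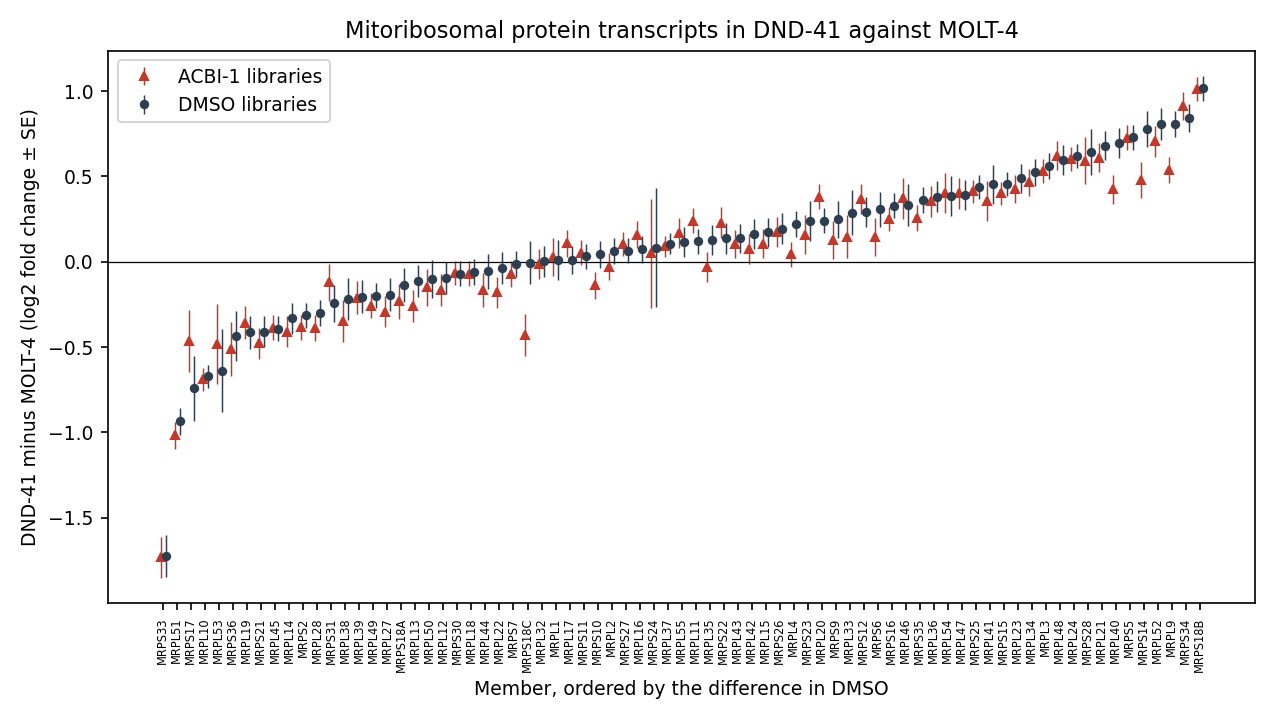
Log2 difference between the lines, DND-41 minus MOLT-4, for each of the 75 tested mitoribosomal protein genes, with ACBI-1 and with DMSO. Points are fitted edgeR values from 1 fit of all 8 libraries, with SE bars. MRPS18B is at the upper end (1.02 with DMSO) and MRPS33 at the lower end (-1.73), and MRPS18C (-0.43 with ACBI-1 and -0.005 with DMSO) is the widest apart between the treatments.

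The ACBI-1 libraries, which are separate from the DMSO libraries, gave a similar difference between the lines. There 27 genes were higher and 17 lower in DND-41, beside 64.8% of all genes called in either direction (edgeR; 30.9% higher and 33.9% lower). Of the 75 genes, 71 had the same sign in both treatments, and 37 were called in both, all 37 in the same direction. Those 37 are 84.1% of the genes called with ACBI-1 and 90.2% of the genes called with DMSO. Pearson's r across the 75 genes was 0.972, as a description of genes that share the fit. These values are not given over all genes tested, so the likeness is not shown to be particular to the mitoribosomal genes. Among the genes named, MRPS14 differed by 0.48 with ACBI-1 and 0.78 with DMSO, MRPL9 by 0.54 with ACBI-1 and 0.81 with DMSO, and MRPS18C by -0.43 with ACBI-1 and -0.005 with DMSO.

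Of the other genes of the pathway, in 7 lists, 6 of 100 tested were called with ACBI-1 in DND-41 (6%, beside 9.83% of all genes) and 11 of 101 in MOLT-4 (10.9%, beside 10.8%). The 7 mitoribosome proteins with other symbols, such as DAP3, had 0 calls in either line, and their medians were 0.020 in DND-41 and 0.030 in MOLT-4. Of 26 assembly factors, none passed in DND-41 and 2 rose in MOLT-4. These were MRM1, an rRNA methyltransferase (0.37 ± 0.108, edgeR, adjusted p = 0.0255), and MTERFD1 (0.26 ± 0.081, adjusted p = 0.0395). Their values were 0.20 without ACBI-1 replicate 1 for MRM1 and 0.16 without ACBI-1 replicate 2 for MTERFD1. Of 18 translation factors, none passed in DND-41, and in MOLT-4 C12orf65, a release factor homologue, rose (0.29 ± 0.083, adjusted p = 0.0245; 0.18 without DMSO replicate 2).

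VARS2, which charges the mitochondrial tRNA for valine, rose in both lines. It had 121 and 131 CPM with ACBI-1, against 105 and 103 with DMSO, in DND-41 (0.29 ± 0.068, edgeR, adjusted p = 0.00333). In MOLT-4 it had 88.6 and 84.3 CPM with ACBI-1, against 70.4 and 70.3 with DMSO (0.29 ± 0.066, adjusted p = 0.00377). The groups were apart in each line. The other 19 genes of its list are mitochondrial aminoacyl-tRNA synthetases and the amidotransferase subunits QRSL1, PET112 and GATC. Of these 19, CARS2 fell in DND-41 (-0.26 ± 0.081, edgeR, adjusted p = 0.0396, and -0.11 without ACBI-1 replicate 1) and none passed in MOLT-4. Of the genes for mitochondrial transcription and DNA maintenance, POLRMT, the organelle's RNA polymerase, rose in DND-41 (0.21 ± 0.066, adjusted p = 0.0338), and none passed in MOLT-4.

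Among 8 tested regulators of mitochondrial biogenesis, 2 rose and 1 fell in DND-41, and 3 rose and 2 fell in MOLT-4, where 9.83% and 10.8% of all genes were called. The list is short and was chosen with earlier results known. GABPA, the DNA-binding subunit of an ETS factor, had 48.5 and 44.3 CPM with ACBI-1, against 35.5 and 36.8 with DMSO, in DND-41 (0.37 ± 0.080, edgeR, adjusted p = 0.00159). It had 64.3 and 73.4 CPM with ACBI-1, against 54.5 and 56.3 with DMSO, in MOLT-4 (0.30 ± 0.073, adjusted p = 0.00605). Its libraries did not overlap between treatments in either line. GABPB1, its partner subunit, rose in MOLT-4 (0.32 ± 0.073, adjusted p = 0.00423).

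ESRRA, an orphan nuclear receptor that acts with PGC-1 coactivators, fell in both lines. It had 13.6 and 15.8 CPM with ACBI-1, against 19.9 and 22.4 with DMSO, in DND-41 (-0.51 ± 0.105, edgeR, adjusted p = 0.00119). MOLT-4 had 18.7 and 15.5 CPM with ACBI-1, against 23.7 and 22.9 with DMSO (-0.45 ± 0.101, adjusted p = 0.00308). PPARGC1B, one of those coactivators, fell in MOLT-4 (-0.44 ± 0.091, adjusted p = 0.00159). MYC, a transcription factor of growth genes, rose in DND-41 (0.30 ± 0.089, adjusted p = 0.0274) and in MOLT-4 (0.35 ± 0.063, adjusted p = 0.0003). In DND-41 it had 1073 and 1311 CPM with ACBI-1, against 970 and 991 with DMSO, and its value was 0.15 without ACBI-1 replicate 2.

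The 13 mitochondrially encoded protein genes, whose transcripts this ribosome translates, had 0 calls in DND-41 (edgeR). In MOLT-4, MT-ATP6 (-0.29 ± 0.089, adjusted p = 0.0368) and MT-ATP8 (-0.33 ± 0.098, adjusted p = 0.0287), subunits of ATP synthase whose reading frames overlap, fell. MT-ATP8 had 2292 and 2320 CPM with ACBI-1, against 2376 and 3382 with DMSO, and its value was -0.052 without DMSO replicate 2. That of MT-ATP6 was -0.17 without ACBI-1 replicate 1 and -0.20 without DMSO replicate 2. The summed level of all 13 genes was 142006 ± 29501 and 142425 ± 317 CPM in DND-41 with ACBI-1 and DMSO. In MOLT-4 it was 165391 ± 13481 and 179381 ± 7808 CPM with ACBI-1 and DMSO (SD, n = 2 each). In DND-41 the difference in this sum between treatments was smaller than the SD of the ACBI-1 libraries. DESeq2 gave MT-ATP6 and MT-ATP8 adjusted p-values of 0.319 and 0.654.

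With DESeq2, GABPA, ESRRA, MYC and VARS2 kept their calls in both lines, as did GABPB1 and PPARGC1B in MOLT-4, whereas POLRMT, CARS2, MRM1, MTERFD1 and C12orf65 did not pass (adjusted p = 0.0819, 0.194, 0.165, 0.187 and 0.139). With 1 library left out in DND-41, log2 fold changes were 0.304 to 0.441 for GABPA and -0.615 to -0.404 for ESRRA. They were 0.149 to 0.431 for MYC, 0.242 to 0.344 for VARS2, 0.177 to 0.244 for POLRMT and -0.414 to -0.113 for CARS2. In MOLT-4 they were 0.216 to 0.398 for GABPA, 0.293 to 0.353 for GABPB1 and -0.598 to -0.315 for ESRRA. PPARGC1B had -0.472 to -0.393, MYC 0.322 to 0.395 and VARS2 0.252 to 0.334. MRM1 had 0.205 to 0.524, C12orf65 0.179 to 0.403 and MTERFD1 0.162 to 0.354. MT-ATP6 had -0.397 to -0.174 and MT-ATP8 -0.559 to -0.052. All directions held.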

How the data were processed

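Total RNA of the 8 libraries was sequenced as strand-specific paired-end reads, per the labels' protocols. The authors deposited raw read counts per gene, 1 table for each line, with 63677 genes in each. They also deposited 1 table of their own comparison per line, with log2 fold changes, p-values and adjusted p-values per the file headers. Per the submitters' processing notes, the tools were STAR 2.5.2a, featureCounts and DESeq2 1.12.4, with genome build hg19. Neither the annotation nor the strandedness used in counting is stated in the sources used here. Signs in the MOLT-4 comparison table run opposite to ACBI-1 minus DMSO (r = -1 with the counts), so only its adjusted p-values are used.

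Libraries were grouped by title. The test was edgeR 4.0.16 under R 4.3.3, with limma 3.58.1, and used the quasi-likelihood F-test, with TMM scaling, the default filter on low counts and Benjamini-Hochberg adjustment over all genes tested, at a threshold of 5%. Within a line, only its 4 libraries entered the fit. The interaction and the contrasts between lines came from 1 fit of all 8. Fold changes are given with the standard error (SE) and levels with the SD, n = 2. Permutations were not used, since 2 against 2 libraries cannot reach 5%. The script was tested on simulated counts. Summed over genes, replicates differed by more than sampling noise in every group. The chi-square per gene was 17.2 in DND-41 with ACBI-1 and 3.19 to 5.58 in the other groups. This is a mean that was not split by depth, so it does not describe a typical gene.

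CPM used TMM-scaled totals. A count of 0 has a 95% upper limit of 3 reads, from counting error alone. Exon lengths and overlaps came from GENCODE 29 on GRCh38, matched by Ensembl identifier, and promoters and neighbouring starts from RefSeq on GRCh38.p14, so neither is the annotation of the counts. The alternatives were DESeq2 1.42.0, other scalings, no filter, a minimum fold of 1.5 by glmTreat, a 1% threshold, a GC correction, 1 fit of all 8 libraries, the replicate number as a block, longest transcripts for lengths, and leaving out each library.

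Genes named were those past the threshold with ACBI-1, or the smallest p up to 6 per line, the 6 largest differences between lines in each direction, the 5 highest and 5 lowest levels, and called genes of the pathway lists. MRPS18C was named after its values were seen, as were the neighbouring genes. The members, lists and motifs were chosen with earlier results of these data known.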

Additional observations from a re-analysis of the deposited data

How the results depend on the processing

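In DND-41, where 4 mitoribosomal genes were called, DESeq2 and a threshold of 1% called 1 each, and no filter on low counts and a minimum fold of 1.5 called 0 each. All 8 libraries in 1 fit called 2. In MOLT-4, where 3 were called, DESeq2, no filter, the 1% threshold and the minimum fold called 0 each. Except for DESeq2, the share of all genes called within a line under these settings is not given here. Calls with 1 library left out are not counted, since such a fit holds a single library in a group. At an unadjusted p under 0.05 edgeR found 13 genes in DND-41 (17.3%, against 21.4% of all genes) and 10 in MOLT-4 (13.3%, against 22.6%). Between the lines with DMSO, the minimum fold left 8 genes, 6 higher and 2 lower, beside 29.7% of all genes, and the other settings gave counts within 1.5 times of 41. The median level was 16.4 RPKM with the length of the longest transcript, against 14.6 with merged exons. The cause of these shifts was not tested.

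Over all genes, replicates with the same number did not deviate together (r = 0.0422 in DND-41 and 0.0434 in MOLT-4). The labels do not say whether they were handled together, and a low r over all genes cannot settle it. With the replicate number as a block, 9 genes were called in DND-41 (7 higher and 2 lower), 4 in MOLT-4, 40 between the lines and 0 for the difference between the responses. The block with a GC correction called 12 in DND-41 and 5 in MOLT-4. The share of all genes called with the block is not given here, so these counts cannot be set against it.

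The median log2 fold change of the 75 genes kept its sign in DND-41 (0.028 to 0.092 with 1 library left out), in MOLT-4 (0.054 to 0.125) and between the lines (0.048 to 0.123). No call reversed, and the difference between the responses had 0 calls under each setting run. With 2 libraries per group the median SE of the 75 genes was 0.086 on the log2 scale in DND-41 and 0.082 in MOLT-4.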
